A study of Homo sapiens with 8 samples.

Results

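The genes described here encode the channels, release channels, pumps and exchangers that carry calcium across cell membranes, together with the TRP channels outside the melastatin family. They were chosen by gene symbol: subunits of voltage-gated calcium channels (CACNA1, CACNA2D, CACNB and CACNG), STIM and ORAI, the inositol trisphosphate receptors (ITPR) and ryanodine receptors (RYR), the pumps ATP2A, ATP2B and ATP2C, the sodium-calcium exchangers SLC8A, and TRPC, TRPV and MCOLN. The choice gave 65 of the 31426 genes with a symbol on the arrays, measured by 119 probes. Each gene is given by its brightest probe, that is the probe with the highest mean over all arrays, unless another probe is named.

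RNA from 2 neuroblastoma cell lines was hybridised to 8 bead arrays (Illumina HumanHT-12 v4). The lines were SH-SY5Y (neuroblastic) and SH-EP2 (epithelial-like), both subclones of the SK-N-SH line. Each line was stably transduced with lentivirus carrying either a shRNA against TRPM7 or a scrambled shRNA, called control here, and was selected with puromycin, so that control cells also carry a lentiviral construct. There were 2 arrays in each of the 4 groups. A single TRPM7 shRNA was used on the arrays, and whether the 2 replicates of a group were separate cultures is not given in the sources used here, so that p-values measure only the spread between these samples, which may be technical. TRPM7 is itself a cation channel of the melastatin family, fused to a kinase, and the comparison of TRPM7 shRNA with control in each line asks whether lowering it changed the RNA of other calcium channels and pumps.

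Calcium is kept low in the cytosol and high outside the cell and in the endoplasmic reticulum. Voltage-gated channels, with a pore-forming alpha1 subunit and auxiliary alpha2delta, beta and gamma subunits, open on depolarization and are best known from neurons and muscle. Receptor signalling opens ITPR channels in the endoplasmic reticulum, STIM proteins sense the emptied store and open ORAI channels in the plasma membrane, and pumps and exchangers return the ion to the store (ATP2A), to the Golgi (ATP2C) or to the outside (ATP2B and SLC8A). SH-SY5Y cells have a neuron-like, noradrenergic character, whereas SH-EP2 cells are flat and substrate-adherent.

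Values are log2 signals after background correction and quantile normalization over the 8 arrays. A probe's level depends on its sequence, so levels are compared between samples and never between genes. A gene is called detected on an array where its brightest probe has a detection p under 0.05. Differences were tested with limma in a single fit over all probes, and a difference is called at a Benjamini-Hochberg adjusted p under 0.05. Where a gene was not detected on either array of a group, the fold change is given as a lower bound. It is computed from the lowest signal among detected probes on those arrays, or from the probe's own signal if that was higher. Such a bound compares mean signals and leaves out their sampling error, so that the true fold can be smaller.

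The arrays were alike in brightness, with median signals of 104.7 to 119.9 and 40.8% to 44.2% of probes detected. Their number limits the precision. The 12 noradrenergic marker genes had a median level of 11.03 in SH-SY5Y control and 2.94 in SH-EP2 control arrays. The 12 mesenchymal markers had medians of 4.95 and 9.51. DBH was not detected in SH-EP2 nor PRRX1 in SH-SY5Y. However, TWIST1 and AEBP1 were higher in SH-SY5Y. VIM was slightly higher there in control cells (log2 difference 0.19) and lower in TRPM7 shRNA cells (-0.23). TH, the enzyme that starts catecholamine synthesis, was not detected on any array. On both SH-EP2 control arrays 5 of the 12 noradrenergic markers were detected, and on both SH-SY5Y control arrays 7 of the 12 mesenchymal markers. The TRPM7 probe lay at background throughout (levels 2.46 to 3.02, never detected), so that these arrays do not check the knockdown.

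Of the 65 genes, 43 were detected on at least 1 array, 14 on all 8 and 22 on none. Between 21 and 24 genes were detected on both arrays of each group. The heat map of levels shows how the families differ in this. All 5 STIM and ORAI genes, all 3 ITPR genes and all 3 mucolipin genes were detected in at least 1 group. In contrast, the neuronal alpha1 subunits CACNA1A, CACNA1B and CACNA1E, which form the P/Q-type, N-type and R-type channels, were not detected on any array of either line.

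The other genes without detection were the L-type subunit CACNA1F, the T-type subunits CACNA1H and CACNA1I, CACNA2D3, CACNA2D4, CACNG2, CACNG3, CACNG8, RYR3, the muscle pump ATP2A1, ATP2B2, the exchanger SLC8A1, TRPC2 (a pseudogene in humans), TRPC5, TRPC6, TRPC7, TRPV2, TRPV3 and TRPV5. A probe without detection bounds the RNA only at the array's background and does not show that it is absent. The 14 genes detected on all arrays were CACNB3, ORAI1, ORAI2, STIM1, STIM2, ITPR1, ITPR2, ITPR3, ATP2A2, ATP2B1, ATP2B4, ATP2C1, TRPC1 and MCOLN1. They cover store-operated entry, release from the store, and extrusion, with a beta subunit as the only auxiliary subunit of voltage-gated channels among them.

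**Figure D1:**
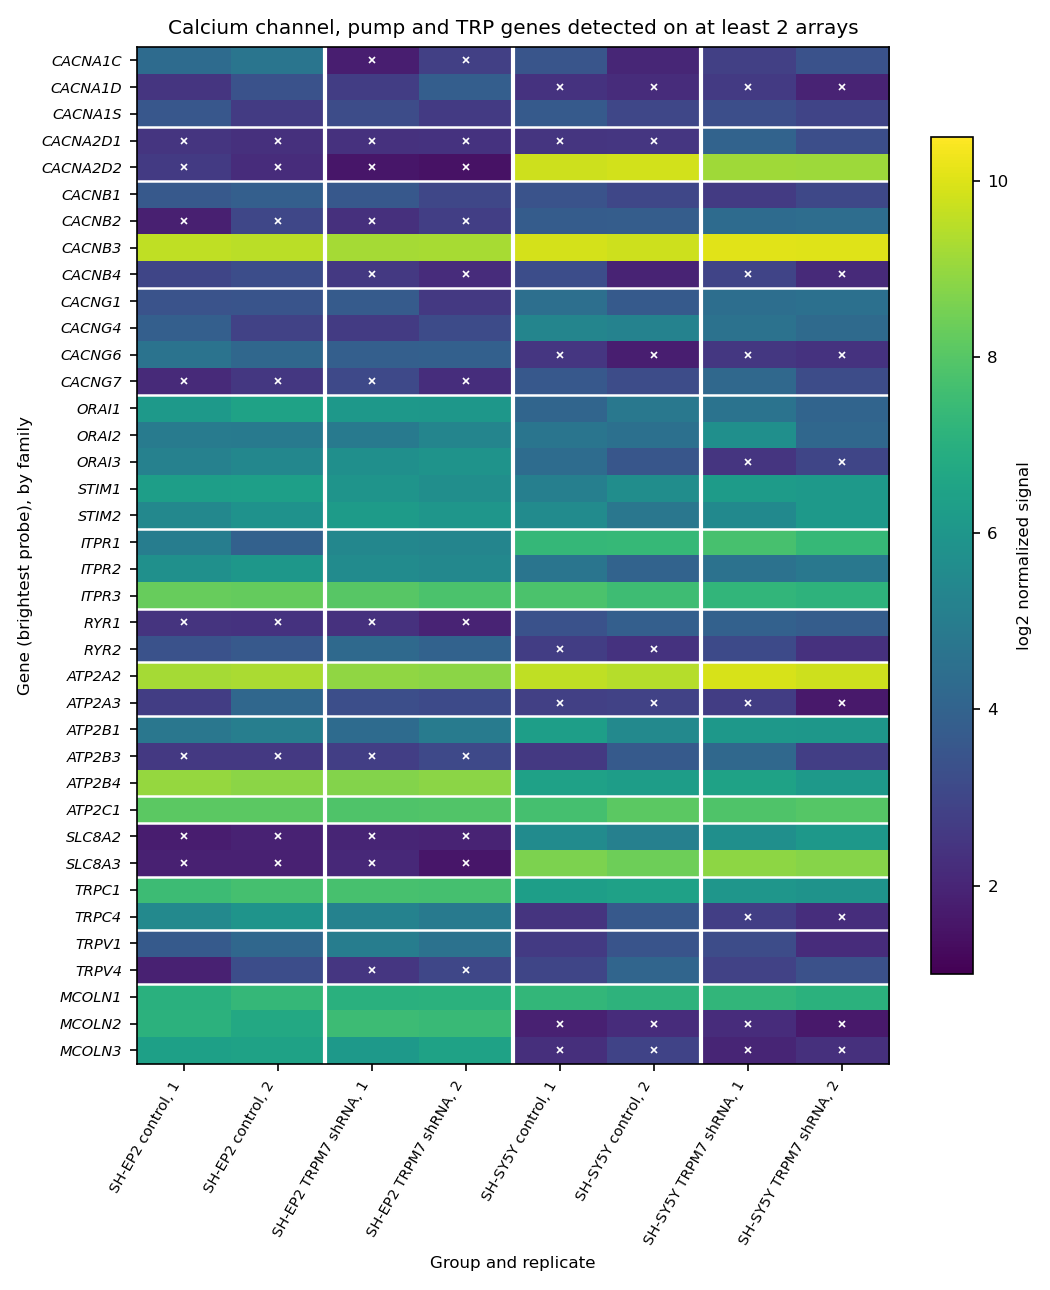
Heat map of log2 normalized signal for the 38 genes detected on at least 2 arrays (rows, grouped by family) on each of the 8 arrays (columns, labelled by group and replicate); a white cross marks a group in which the gene was not detected on either array. CACNA2D2, SLC8A2 and SLC8A3 have a level in SH-SY5Y arrays and crosses in SH-EP2 arrays, and MCOLN2 and MCOLN3 show the opposite.

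In SH-SY5Y cells no calcium channel or pump gene passed the test between TRPM7 shRNA and control. The count was 0 of 65, against 2.57% of all genes called in this comparison (0.999% higher and 1.57% lower). At an unadjusted p under 0.05 there were 12 of the 65, where 12.7% of all genes were below it, and the smallest adjusted p (limma) was 0.0837, for STIM1. The median difference over the 65 genes was -0.038, against 0.0034 over all genes. The TRPM7 shRNA and control arrays did not overlap for 21 of them (32.3%, against 40.5% of all genes).

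For the 14 genes detected on all arrays the data bound the size of any change. Their differences in SH-SY5Y lay between -0.47 (ITPR3) and 0.78 (STIM1) on the log2 scale, and their 95% intervals together spanned -0.77 to 1.24. In SH-EP2 they lay between -0.55 (STIM1) and 0.86 (ITPR1), with intervals spanning -1.01 to 1.41. The plot of knockdown differences shows these genes in both lines.

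**Figure D2:**
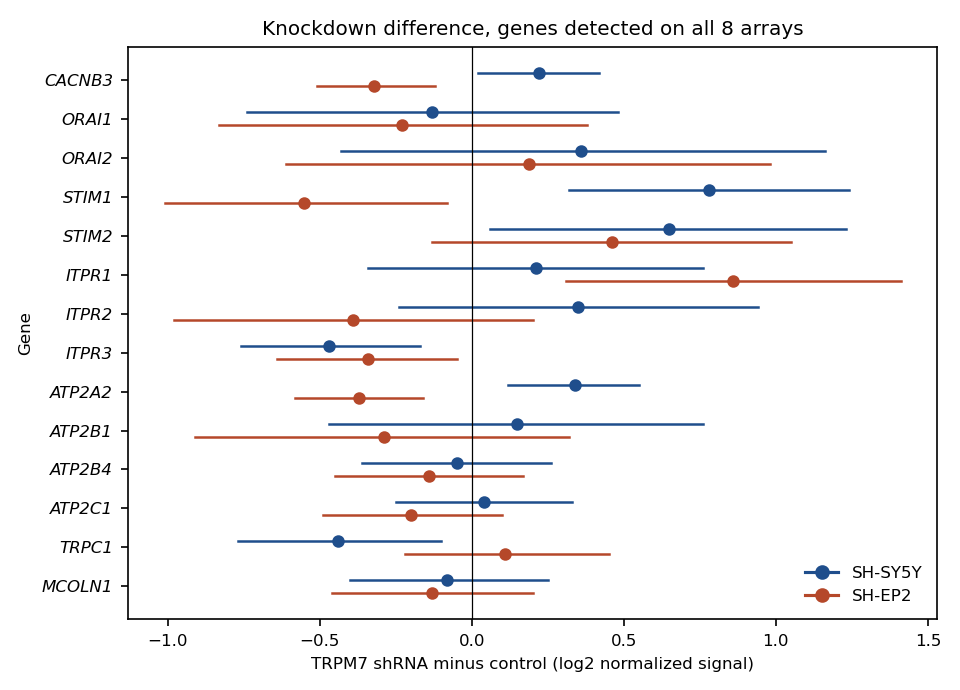
Difference in log2 normalized signal between TRPM7 shRNA and control arrays (x axis) for the 14 genes detected on all 8 arrays (y axis), in SH-SY5Y (blue) and SH-EP2 (red); points are fitted differences (2 arrays against 2) and lines their 95% intervals. Intervals are narrowest for the bright probes of CACNB3 and ATP2A2. Points of 7 of the 14 genes (CACNB3, STIM1, ITPR2, ATP2A2, ATP2B1, ATP2C1 and TRPC1) lie on opposite sides of 0 in the 2 lines. For ITPR2, ATP2B1, ATP2C1 and TRPC1 the interval includes 0 in at least 1 line. The share of all genes with points on opposite sides was not computed.

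In SH-EP2 cells 2 of the 65 genes (3.08%) passed the test, both lower with TRPM7 shRNA, against 3.67% of all genes (1.82% higher and 1.85% lower). The median difference was -0.13, against 0.01 over all genes, and the groups did not overlap for 30 of the 65 (46.2%, against 44.3% of all genes). CACNA1C encodes the pore of the widely expressed L-type channel. Its levels in SH-EP2 were 4.32 and 4.69 in control and 1.81 and 2.81 in TRPM7 shRNA arrays, and it was detected on both control arrays but on neither TRPM7 shRNA array. The signal was at least 2.51-fold lower with TRPM7 shRNA (log2 difference -2.19 ± 0.55 SE, limma adjusted p = 0.0324). In SH-SY5Y the levels overlapped, with 3.5 and 2.02 in control and 2.80 and 3.39 in TRPM7 shRNA arrays, and the difference between the lines' knockdown effects did not pass (2.53 ± 0.78 SE, adjusted p = 0.158). Among the 4 arrays of SH-EP2, omitting the first control (-2.38), the second control (-2.03) or the first TRPM7 shRNA array (-1.71) ended the call. The other 2 CACNA1C probes were not detected on any array, and the mean over all its probes differed by -0.70 and was not called. The call was also lost with median scaling (-2.14, adjusted p = 0.0501), without the intensity trend and with per-probe tests. In a culture, fewer cells with a transcript and less of it per cell cannot be told apart.

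CACNA2D2, an alpha2delta subunit that brings channels to the cell surface, was the second gene called in SH-EP2 (-0.89 ± 0.22 SE, limma adjusted p = 0.0319). It was not detected on any SH-EP2 array, with levels of 2.60 and 2.19 in control and 1.56 and 1.45 in TRPM7 shRNA arrays, so no fold is given. Leaving out any 1 of 7 arrays, all but SH-EP2 control replicate 2, lost the call (differences -1.10 to -0.68 over all 8 omissions), as did other background corrections (-0.16 to -0.28). In SH-SY5Y, where it was bright, the levels were 9.79 and 9.84 in control and 9.16 and 9.09 in TRPM7 shRNA arrays. The groups did not overlap, but the difference of -0.69 ± 0.22 SE did not pass (adjusted p = 0.151). A second, dimmer probe gave -1.17 ± 0.49 SE there and was not called either.

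The knockdown differences of 3 genes (4.62% of the 65, against 1.78% of all genes) differed between the lines: STIM1, ATP2A2 and CACNB3. All 3 were positive (0.786% of all genes were called positive and 0.993% negative). Each had a higher signal with TRPM7 shRNA than with control in SH-SY5Y and a lower signal in SH-EP2. None of these differences was called within a line, although the ATP2A2 difference in SH-EP2 was called under 7 of the alternatives, among them neqc (-0.35, adjusted p = 0.0307), no background correction (-0.30, adjusted p = 0.0321) and SH-EP2 arrays fitted alone (-0.37, adjusted p = 0.0131). With median scaling the STIM1 difference in SH-SY5Y was called (0.94, adjusted p = 0.0342), and with detected probes only that of ATP2A2 was (0.34, adjusted p = 0.0459). At an unadjusted p under 0.05 there were 8 of the 65 (11.4% of all genes). The values are the SH-SY5Y difference minus the SH-EP2 difference.

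STIM1, the calcium sensor of the endoplasmic reticulum, had levels of 5.11 and 5.64 in SH-SY5Y control and 6.2 and 6.11 in SH-SY5Y TRPM7 shRNA arrays. In SH-EP2 they were 6.34 and 6.36 in control and 5.92 and 5.68 in TRPM7 shRNA arrays. The control and TRPM7 shRNA arrays did not overlap in either line. The within-line differences were 0.78 ± 0.22 SE (limma adjusted p = 0.0837) in SH-SY5Y and -0.55 ± 0.22 SE (adjusted p = 0.272) in SH-EP2, and they differed by 1.33 ± 0.31 SE (adjusted p = 0.0377). STIM1 was lower in SH-SY5Y than in SH-EP2 in control cells (-0.98 ± 0.22 SE, adjusted p = 0.00174), while in TRPM7 shRNA cells the line difference was 0.35 ± 0.22 SE and was not called (adjusted p = 0.314). These comparisons share arrays and are not independent. STIM2, its homologue, had SH-SY5Y levels of 5.58 and 4.76 in control and 5.52 and 6.12 in TRPM7 shRNA arrays, which overlap, and differences of 0.65 ± 0.28 SE in SH-SY5Y and 0.46 ± 0.28 SE in SH-EP2, neither called.

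ATP2A2 encodes the housekeeping calcium pump of the endoplasmic reticulum. Its brightest probe (ILMN_1687375) had levels of 9.59 and 9.43 in SH-SY5Y control and 9.91 and 9.78 in SH-SY5Y TRPM7 shRNA arrays. In SH-EP2 it had 9.22 and 9.28 in control and 8.91 and 8.86 in TRPM7 shRNA arrays. The groups did not overlap in either line. The differences were 0.34 ± 0.10 SE (limma adjusted p = 0.114) in SH-SY5Y and -0.37 ± 0.10 SE (adjusted p = 0.0555) in SH-EP2, and they differed by 0.70 ± 0.14 SE (adjusted p = 0.0119). The other 2 ATP2A2 probes, also detected on all 8 arrays, gave smaller differences between the lines' effects that were not called: 0.27 ± 0.19 SE (ILMN_1655884) and 0.33 ± 0.16 SE (ILMN_1815666). They also ordered the lines the other way, with control SH-SY5Y below control SH-EP2 by a called log2 difference (-0.86 and -0.93), where the brightest probe gave 0.26 ± 0.10 SE (adjusted p = 0.0706). The 3 probes of ATP2A2 therefore disagree, and which transcripts each one reads is not given in the sources used here.

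CACNB3, a beta subunit that binds and stabilizes alpha1 subunits, was detected on every array. Its levels were 9.90 and 9.77 in SH-SY5Y control and 10.06 and 10.05 in SH-SY5Y TRPM7 shRNA arrays, against 9.58 and 9.51 in SH-EP2 control and 9.22 and 9.24 in SH-EP2 TRPM7 shRNA arrays. The control and TRPM7 shRNA arrays stood apart in both lines, by 0.22 ± 0.094 SE (limma adjusted p = 0.351) in SH-SY5Y and -0.32 ± 0.094 SE (adjusted p = 0.0833) in SH-EP2. The effects differed by 0.54 ± 0.13 SE (adjusted p = 0.0485).

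These 3 calls stood close to the threshold. Leaving out any 1 array except SH-SY5Y control replicate 1 lost the CACNB3 call (0.47 to 0.60), and any 1 array except SH-SY5Y control replicate 2 lost the STIM1 call (1.07 to 1.59). The ATP2A2 call was lost without SH-EP2 control replicate 2, SH-EP2 TRPM7 shRNA replicate 1 or 2, or SH-SY5Y TRPM7 shRNA replicate 1 (0.63 to 0.78 over all omissions). With median scaling the call for CACNB3 was lost (0.69, adjusted p = 0.0577), and with the mean over probes that for ATP2A2 (0.43, adjusted p = 0.214). All 3 were lost without the intensity trend and with per-probe tests. Every one of these alternative values stayed positive.

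**Figure D3:**
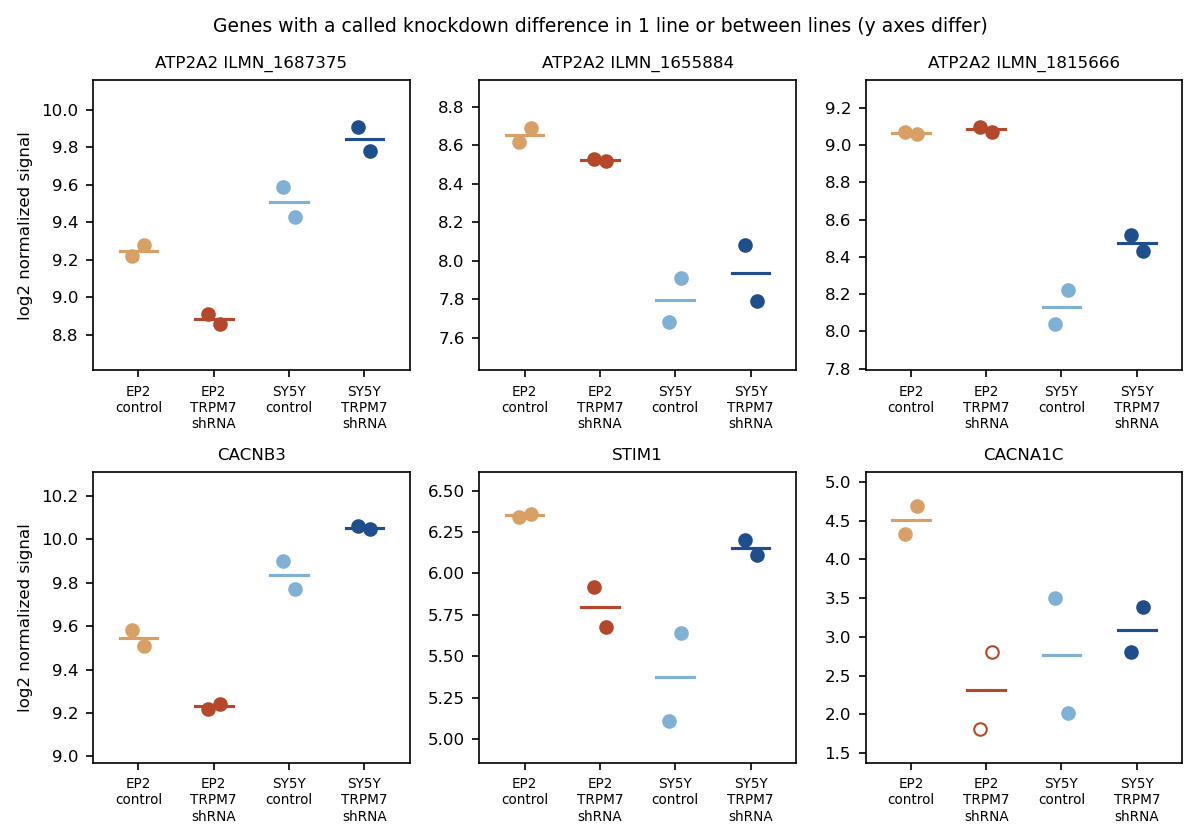
Log2 normalized signal (y axis, scale differs between panels) on each array of the 4 groups (x axis) for the 3 ATP2A2 probes, CACNB3, STIM1 and CACNA1C; points are arrays, bars are group means, and open points mark a group in which the probe was not detected on either array. The brightest ATP2A2 probe is higher in SH-SY5Y and its other 2 probes are higher in SH-EP2, and the STIM1 control arrays of SH-SY5Y (5.11 and 5.64) lie below all other arrays of that gene.

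The remaining genes of store-operated entry did not pass in either line. ORAI3, a pore subunit, had SH-SY5Y levels of 4.36 and 3.54 in control and 2.46 and 2.97 in TRPM7 shRNA arrays, and it was not detected on the TRPM7 shRNA arrays. The signal there was at least 1.89-fold lower (-1.23 ± 0.36 SE, limma adjusted p = 0.0901), whereas SH-EP2 gave 0.53 ± 0.36 SE (adjusted p = 0.619). Without SH-SY5Y control replicate 2, the ORAI3 (-1.66) and STIM1 (1.04) differences in SH-SY5Y were both called. ORAI1, the main store-operated pore subunit, differed by -0.13 ± 0.29 SE in SH-SY5Y, which became 0.01 with median scaling, and by -0.23 ± 0.29 SE in SH-EP2. For ORAI2 the differences were 0.36 ± 0.38 SE and 0.19 ± 0.38 SE, with SH-SY5Y TRPM7 shRNA arrays at 5.74 and 4.18 around the control levels of 4.69 and 4.50.

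Neither of the TRP genes detected on all 8 arrays passed between TRPM7 shRNA and control. TRPC1, a receptor-operated channel, differed by -0.44 ± 0.16 SE in SH-SY5Y (limma adjusted p = 0.238) and 0.11 ± 0.16 SE in SH-EP2. MCOLN1, the lysosomal calcium channel, had the most even levels of the 14 genes detected on all arrays, between 7.02 and 7.31 on the 8 arrays. Its differences were -0.08 ± 0.16 SE in SH-SY5Y, which became 0.09 with median scaling, and -0.13 ± 0.16 SE in SH-EP2. Their 95% intervals, -0.40 to 0.25 and -0.46 to 0.20, bound any change of this probe's signal.

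The lines themselves differed far more than TRPM7 shRNA and control arrays did. In control cells 20 of the 65 genes (30.8%, against 30.1% of all genes) were called, with 8 higher (15.9% of all genes) and 12 lower (14.2%) in SH-SY5Y. In TRPM7 shRNA cells, which are separate arrays, 25 (38.5%, against 29.9%) were called, with 13 higher (15.7%) and 12 lower (14.2%). Both comparisons called 18 genes in the same direction (27.7%, against 24.4%), of which 8 were higher in SH-SY5Y (12.9% of all genes) and 10 were lower (11.5%). The share in control cells was thus near that of all genes. The labels give 1 medium for all samples, whereas the study's methods give the lines different media. If the media did differ, line and medium cannot be told apart. The median difference was 0.082 in control cells and 0.05 in TRPM7 shRNA cells (0.019 and 0.0075 over all genes). The differences below are SH-SY5Y minus SH-EP2, first in control and then in TRPM7 shRNA cells.

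**Figure D4:**
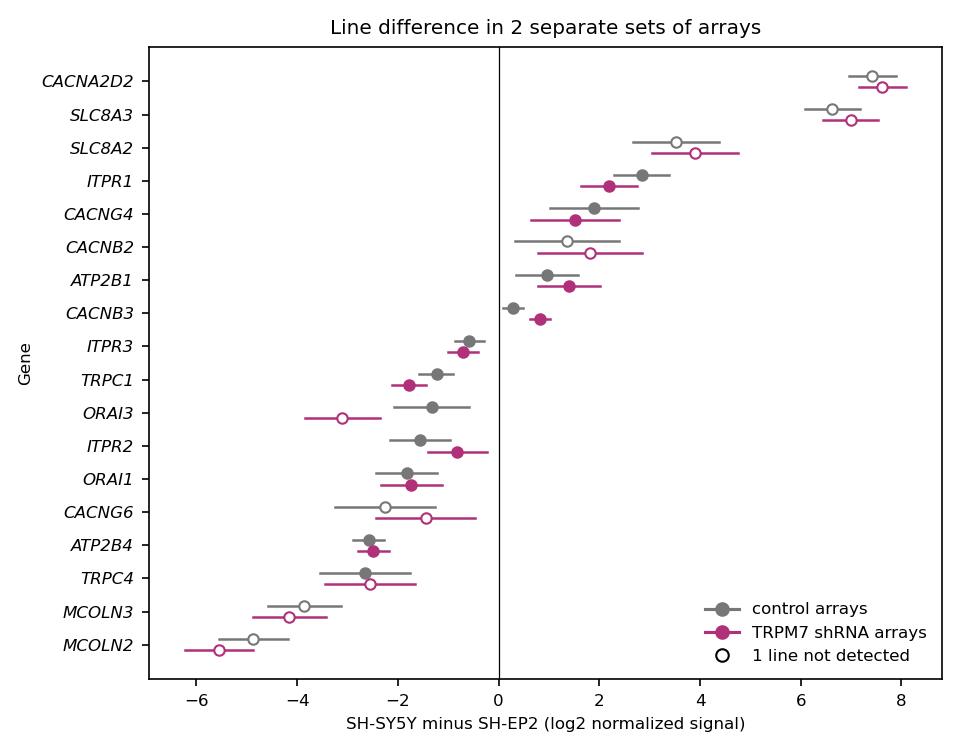
Difference in log2 normalized signal between SH-SY5Y and SH-EP2 (x axis) for the 18 genes called in both comparisons (y axis), in control arrays (grey) and TRPM7 shRNA arrays (magenta); points are fitted differences of 2 arrays against 2, lines their 95% intervals, and open points mark a gene that 1 of the lines did not detect. CACNA2D2, SLC8A3 and SLC8A2 lie furthest to the right, and MCOLN2 and MCOLN3 furthest to the left, in both sets of arrays.

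The voltage-gated channel subunits called in both comparisons were auxiliary ones. CACNA2D2 was at 9.79 and 9.84 in SH-SY5Y control and 9.16 and 9.09 in SH-SY5Y TRPM7 shRNA arrays, and was not detected in SH-EP2, where no level exceeded 2.60. The signal was at least 96.2-fold higher in SH-SY5Y in control cells and at least 61.8-fold higher in TRPM7 shRNA cells (limma adjusted p = 7.31e-16 and 5.17e-16). A second, dimmer CACNA2D2 probe, not detected in SH-EP2, was at least 1.86-fold higher in SH-SY5Y control cells (adjusted p = 0.00138) and was not called in TRPM7 shRNA cells (adjusted p = 0.302). CACNB3 was higher in SH-SY5Y by 0.29 ± 0.094 SE and 0.83 ± 0.094 SE. The call in control cells was lost without SH-EP2 control replicate 1 (0.33), SH-EP2 control replicate 2 (0.25) or SH-SY5Y control replicate 1 (0.22).

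CACNB2, another beta subunit, was detected only in SH-SY5Y, with levels of 3.76 and 3.81 in control and 4.32 and 4.38 in TRPM7 shRNA arrays. It was at least 1.47-fold and at least 2.26-fold higher there (limma adjusted p = 0.0481 and 0.00775). The first of these calls was lost on leaving out any array except SH-EP2 control replicate 2 and SH-EP2 TRPM7 shRNA replicate 1 (0.78 to 1.96), and the second without SH-EP2 TRPM7 shRNA replicate 1 (1.60) or SH-SY5Y TRPM7 shRNA replicate 2 (1.76). Another CACNB2 probe, not detected in SH-EP2, was at least 1.13-fold higher in control cells (adjusted p = 0.0163) and was not called in TRPM7 shRNA cells (adjusted p = 0.146), and the remaining 3 were not detected on any array.

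The gamma subunits are small membrane proteins, of which some also traffic AMPA receptors. CACNG4 was at 5.33 and 5.21 in SH-SY5Y control and 4.58 and 4.28 in SH-SY5Y TRPM7 shRNA arrays, above all SH-EP2 arrays (2.65 to 3.88). Its differences were 1.90 ± 0.41 SE and 1.52 ± 0.41 SE (limma adjusted p = 0.00122 and 0.00807), the second not called without SH-EP2 TRPM7 shRNA replicate 1 (1.27) or SH-SY5Y TRPM7 shRNA replicate 1 (1.36). CACNG6 went the other way, with 4.62 and 4.18 in SH-EP2 control, 3.89 and 3.93 in SH-EP2 TRPM7 shRNA arrays and no detection by this probe in SH-SY5Y. It was at least 2.36-fold lower in SH-SY5Y control cells (adjusted p = 0.000798) and at least 1.84-fold lower in TRPM7 shRNA cells (adjusted p = 0.0267), and the latter was lost without any 1 of the 4 TRPM7 shRNA arrays (-1.53 to -1.34). Of the other 2 CACNG6 probes, 1 was detected on a single SH-SY5Y control array (3.56) and 1 on none, and neither was called.

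The alpha1 subunits themselves were near background. CACNA1C was called lower in SH-SY5Y in control cells only (-1.74 ± 0.55 SE, limma adjusted p = 0.0221), and the line difference in TRPM7 shRNA cells was 0.79 ± 0.55 SE (adjusted p = 0.381). CACNA1D and CACNA1S were detected on 2 and 4 of the 8 arrays and CACNA1G on 1, with no call in any comparison.

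Of the 3 store-operated pore subunits, ORAI1 and ORAI3 were lower in SH-SY5Y. ORAI1 was at 6.09 and 6.49 in SH-EP2 control and 6.08 and 6.03 in SH-EP2 TRPM7 shRNA arrays, against 4.11 and 4.82 and then 4.62 and 4.05 in SH-SY5Y. The lines did not overlap, and the differences were -1.82 ± 0.29 SE and -1.73 ± 0.29 SE (limma adjusted p = 3.97e-05 and 7.73e-05). ORAI3 was lower by -1.33 ± 0.36 SE in control cells (adjusted p = 0.00665), a call lost without SH-EP2 control replicate 2 (-1.21) or SH-SY5Y control replicate 2 (-0.92), and at least 6.88-fold lower in TRPM7 shRNA cells (adjusted p = 6.25e-07). ORAI2 (-0.34 ± 0.38 SE and -0.17 ± 0.38 SE) and STIM2 (-0.48 ± 0.28 SE and -0.29 ± 0.28 SE) were not called.

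The inositol trisphosphate receptors, which release calcium from the endoplasmic reticulum, were called in both comparisons for all 3 genes, in opposite directions. ITPR1, the form best known from neurons, was at 7.31, 7.37, 7.73 and 7.37 on the SH-SY5Y arrays and at 5.03, 3.96, 5.39 and 5.33 on the SH-EP2 arrays. It was higher in SH-SY5Y by 2.84 ± 0.26 SE and 2.19 ± 0.26 SE (limma adjusted p = 2.80e-08 and 1.09e-06). ITPR2 was lower in SH-SY5Y (-1.56 ± 0.28 SE and -0.82 ± 0.28 SE), the second call being lost without any 1 of the 4 TRPM7 shRNA arrays (-0.93 to -0.71). ITPR3 was lower as well (-0.58 ± 0.14 SE and -0.70 ± 0.14 SE), from 8.28 and 8.25 in SH-EP2 control to 7.82 and 7.55 in SH-SY5Y control arrays. Ryanodine receptors were dim, and RYR1 (higher in SH-SY5Y) and RYR2 (lower) were called in TRPM7 shRNA cells only.

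Calcium is exported by plasma membrane pumps and, in excitable cells, by sodium-calcium exchangers. SLC8A2 and SLC8A3 were detected by their brightest probes in SH-SY5Y alone. SLC8A3 had levels of 8.63 and 8.39 in SH-SY5Y control and 8.90 and 8.76 in SH-SY5Y TRPM7 shRNA arrays, while no SH-EP2 level exceeded 2.10. It was at least 38.8-fold and at least 50.6-fold higher in SH-SY5Y (limma adjusted p = 4.54e-14 and 2.00e-14). SLC8A2 was at 5.59 and 5.13, then 5.72 and 6.05, in SH-SY5Y and no higher than 2.00 in SH-EP2, which gave at least 4.38-fold and at least 6.54-fold (adjusted p = 7.14e-07 and 1.76e-07). Of the other 2 SLC8A3 probes, 1 was not detected on any array (0.25 ± 0.34 SE in control cells). The other was dim but detected in both lines, with 3.28 and 2.91 in SH-EP2 control and 4.22 and 3.24 in SH-EP2 TRPM7 shRNA arrays, and was not called (-0.19 ± 0.50 SE in control cells).

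The plasma membrane pumps ran in opposite directions. ATP2B4 was at 9.0, 8.85, 8.72 and 8.86 on the SH-EP2 arrays and at 6.42, 6.28, 6.46 and 6.13 on the SH-SY5Y arrays, a difference of -2.58 ± 0.15 SE and -2.49 ± 0.15 SE (limma adjusted p = 2.40e-11 and 4.18e-11), and a second bright probe gave -2.86 ± 0.18 SE in control cells. The remaining ATP2B4 probe, near background, gave -0.21 ± 0.50 SE. ATP2B1 was higher in SH-SY5Y by 0.96 ± 0.29 SE and 1.40 ± 0.29 SE (adjusted p = 0.0174 and 0.000812), with the call in control cells lost without SH-EP2 control replicate 1 (0.81) or SH-SY5Y control replicate 1 (0.54). Its other 2 probes, detected on 7 arrays and on none, gave 0.33 ± 0.48 SE and -0.36 ± 0.42 SE in control cells. Of the pumps that fill internal stores, ATP2C1, the Golgi pump, differed by -0.19 ± 0.14 SE and 0.04 ± 0.14 SE, and neither was called.

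Of the TRP channel genes, 2 of 7 TRPC, 0 of 6 TRPV and 2 of 3 MCOLN genes were called in both comparisons. These 4 were lower in SH-SY5Y, as were 11.5% of all genes in both comparisons. MCOLN2 was at 7.10, 6.73, 7.52 and 7.43 on the SH-EP2 arrays and was not detected in SH-SY5Y, where no level exceeded 2.22. It was at least 13.5-fold and at least 21.8-fold lower there (limma adjusted p = 2.11e-10 and 2.79e-11). MCOLN3 was at 6.41, 6.48, 6.14 and 6.48 in SH-EP2, was not detected in SH-SY5Y by this probe, and was at least 9.75-fold lower in both comparisons. Its second probe, which was detected on 1 SH-SY5Y control array (3.26), differed in the same direction (-2.47 ± 0.48 SE in control cells). MCOLN2 and MCOLN3, both endolysosomal channels, are neighbouring protein-coding genes on chromosome 1, whereas MCOLN1 did not differ between the lines beyond its error (0.05 ± 0.16 SE and 0.10 ± 0.16 SE).

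TRPC1 was at 7.53, 7.69, 7.75 and 7.70 on the SH-EP2 arrays and at 6.31, 6.45, 6.0 and 5.88 on the SH-SY5Y arrays, with no overlap. It was lower in SH-SY5Y by -1.23 ± 0.16 SE and -1.78 ± 0.16 SE (limma adjusted p = 3.19e-06 and 1.91e-08). TRPC4 was at 5.49, 5.90, 5.21 and 4.91 in SH-EP2 and detected on only 1 of the 4 SH-SY5Y arrays (-2.65 ± 0.43 SE in control cells, and at least 4.08-fold lower in TRPM7 shRNA cells). TRPV1, the capsaicin receptor, was called lower in TRPM7 shRNA cells only (-2.10 ± 0.48 SE, against -0.91 ± 0.48 SE in control cells). Its other 4 probes, at background on nearly all arrays, gave -0.03 to 0.84 in TRPM7 shRNA cells, and none was called.

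The genes called in only 1 of the line comparisons were CACNA1C and STIM1 in control cells, and CACNA2D1, CACNA2D3, CACNG1, RYR1, RYR2, ATP2A2 and TRPV1 in TRPM7 shRNA cells. Among these, CACNA2D3 was not detected on any array. For ATP2A2 the list holds for the brightest probe only, which was higher in SH-SY5Y TRPM7 shRNA cells (0.96 ± 0.10 SE). Its probes ILMN_1655884 and ILMN_1815666 were called lower in SH-SY5Y in both comparisons (-0.59 and -0.61 in TRPM7 shRNA cells). A call in 1 comparison does not show that the lines differed by another amount in the other: the test of that difference is the test between knockdown effects, and it passed for STIM1 and ATP2A2 and for CACNB3, which both line comparisons called. CACNB1, CACNB4, CACNG7, ATP2A3, ATP2B3 and TRPV4 were detected on 2 to 5 arrays, CACNG5, ATP2C2 and TRPV6 on 1, and these 9 genes were called in no comparison.

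Sizes of the line differences depended on the background correction. The calls in the next sentence did not, but those of CACNB2 and ITPR2 did in 1 comparison each. Without any correction the control-cell difference of CACNA2D2 was 3.19, of SLC8A3 2.18, of SLC8A2 0.57, of ITPR1 1.01, of ORAI1 -0.50, of MCOLN2 -1.13 and of MCOLN3 -0.82, all still called. With the mean over a gene's probes, calls were lost in both comparisons for CACNB2 (0.82 and 0.66), CACNG6 (-0.63 and -0.79) and ATP2B1 (0.31 and 0.49). The ITPR2 call in TRPM7 shRNA cells was lost with median scaling (-0.57), neqc (-0.51) and normexp (-0.27). The CACNB2 call in control cells was also lost with neqc (0.56) and without any background correction (0.19).

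Promoter sequences are shown for 4 of the genes that differed between the lines in both sets of arrays, with the largest differences among those with a single start in the reference table: SLC8A2 and ITPR1, higher in SH-SY5Y, and MCOLN3 and TRPC4, higher in SH-EP2. Promoters of 45 of the 65 genes were in the table, 31 of them with 1 start. Each sequence is RefSeq's, from GRCh38.p14, on the gene's strand, and runs from 250 bases before the start of transcription to 50 after it. Capitals mark exact matches, on either strand, to the GC box GGGCGG or to TATAAA, which is only a form of the TATA box. They also mark CACCTG, which is a form of the E-box, and another form of it, spelled CATCTG. The sequence of SLC8A2 is chr19:47471844-47472143 (minus strand), of ITPR1 chr3:4493098-4493397 (plus), of MCOLN3 chr1:85048451-85048750 (minus) and of TRPC4 chr13:37869723-37870022 (minus).
SLC8A2: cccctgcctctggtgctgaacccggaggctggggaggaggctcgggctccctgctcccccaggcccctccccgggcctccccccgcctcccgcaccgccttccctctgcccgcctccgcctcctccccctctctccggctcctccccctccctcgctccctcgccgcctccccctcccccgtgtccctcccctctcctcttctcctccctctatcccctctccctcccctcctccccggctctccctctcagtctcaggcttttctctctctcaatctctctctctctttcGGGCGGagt
ITPR1: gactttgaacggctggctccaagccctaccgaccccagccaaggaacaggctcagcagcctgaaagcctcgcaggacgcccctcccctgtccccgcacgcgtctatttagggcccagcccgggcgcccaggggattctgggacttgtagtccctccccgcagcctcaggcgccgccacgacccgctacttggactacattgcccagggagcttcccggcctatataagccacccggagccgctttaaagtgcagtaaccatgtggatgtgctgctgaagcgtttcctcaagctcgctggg
MCOLN3: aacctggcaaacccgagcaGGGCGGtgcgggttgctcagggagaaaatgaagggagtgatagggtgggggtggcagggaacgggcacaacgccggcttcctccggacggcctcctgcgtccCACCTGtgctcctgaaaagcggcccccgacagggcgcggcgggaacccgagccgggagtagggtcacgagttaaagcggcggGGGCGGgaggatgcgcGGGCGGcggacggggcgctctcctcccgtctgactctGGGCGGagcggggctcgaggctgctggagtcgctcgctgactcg
TRPC4: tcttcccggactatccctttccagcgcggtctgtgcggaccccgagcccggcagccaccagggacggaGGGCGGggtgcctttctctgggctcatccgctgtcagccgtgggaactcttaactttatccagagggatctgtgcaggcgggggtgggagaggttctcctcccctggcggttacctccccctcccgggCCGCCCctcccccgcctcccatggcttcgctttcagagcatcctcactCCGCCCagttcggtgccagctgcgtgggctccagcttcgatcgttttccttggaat

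The counts below describe 4 genes chosen by their line differences. SLC8A2 had 1 GC box match, just after the start. ITPR1 held none of the 4 exact letter strings, although its letters tatataag before the start resemble TATAAA. MCOLN3 had 4 GC box matches and 1 CACCTG, and TRPC4 had 3 GC box matches. Whether these counts go with the line difference was not tested. GC content was 71.3%, 63.3%, 70.3% and 65.3% in the same order, each above the median of 58.7% over all promoters. Over all 35116 promoters of this length, 45.0% held a GC box, 11.5% TATAAA, 20.6% CACCTG and 14.7% CATCTG. Among the 71 promoters of the genes described here these shares were 63.4%, 1.4%, 16.9% and 16.9%. A match is a description of the letters and no evidence of binding, and no match says only that these letters are not in the window.

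Calcium signals also depend on genes that act on these channels or downstream of them. A list of 96 such genes (calmodulin and its kinases, calcineurin and NFAT, proteins of the endoplasmic reticulum, enzymes that make inositol trisphosphate, mitochondrial calcium transporters, other channels, calcium buffers and sensors, and regulators of voltage-gated channels) was measured in full, and 80 were detected on at least 1 array. With TRPM7 shRNA, 8 (8.33%) were called in SH-SY5Y and 8 in SH-EP2, each with 3 higher and 5 lower, against the 2.57% and 3.67% of all genes given above. Most of these partners are detected, and among genes with a probe detected on 2 or more arrays, fitted alone, 5.87% and 8.38% were called. That fit had its own adjustment, and the partners' share in it is not given. Because the list was chosen with earlier results of these data known, the partner shares are a description and no test of an excess. Of the 9 buffers and sensors, 3 were called in SH-SY5Y and 2 in SH-EP2. Each of the other sets had 0 to 2 calls in a line, among them 1 and 2 of the 6 regulators of voltage-gated channels. The list's median differences were -0.023 and -0.015.

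VSNL1, a neuronal calcium sensor of the visinin family, rose in both lines. It went from 6.17 and 6.35 in control to 8.27 and 8.21 in TRPM7 shRNA arrays of SH-SY5Y (1.98 ± 0.23 SE, limma adjusted p = 1.87e-05), and from 4.51 and 3.72 to 6.67 and 6.46 in SH-EP2 (2.45 ± 0.23 SE, adjusted p = 1.34e-06). Its relatives HPCAL1 and NCALD fell in a single line each, with the other line's value beside them. HPCAL1 went from 11.93 and 12.07 to 11.25 and 11.16 in SH-SY5Y (-0.79 ± 0.077 SE, adjusted p = 2.72e-06) and differed by 0.01 ± 0.077 SE in SH-EP2. NCALD went from 6.14 and 6.2 to 5.26 and 5.48 in SH-EP2 (-0.80 ± 0.15 SE, adjusted p = 0.00403) and differed by 0.23 ± 0.15 SE in SH-SY5Y. NCS1, listed on the array as FREQ, fell in SH-SY5Y (-0.69 ± 0.13 SE, adjusted p = 0.00532) and gave -0.46 ± 0.13 SE in SH-EP2 (adjusted p = 0.072).

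GEM, a small GTPase that binds beta subunits and inhibits voltage-gated channels, was called in opposite directions in the 2 lines. It went from 7.01 and 7.05 to 5.92 and 6.08 in SH-SY5Y (-1.03 ± 0.20 SE, limma adjusted p = 0.00651) and from 6.17 and 5.61 to 6.75 and 6.60 in SH-EP2 (0.79 ± 0.20 SE, adjusted p = 0.0364). The call in SH-SY5Y was lost without SH-SY5Y control replicate 2 (-1.01) or TRPM7 shRNA replicate 1 (-0.95), and the call in SH-EP2 without SH-EP2 control replicate 2 (0.50) or TRPM7 shRNA replicate 1 (0.71) or 2 (0.86). Both were also lost with median scaling (-0.85 and 0.79, adjusted p = 0.0657 and 0.0845) and with the mean over probes (-0.76 and 0.65). STAC, an adaptor of L-type channels, fell in SH-EP2 from 4.16 and 5.11 to 2.75 and 3.42 (-1.55 ± 0.29 SE, adjusted p = 0.0038) and stayed at 7.06 to 7.32 in SH-SY5Y; its call was lost without SH-EP2 control replicate 2 (-1.08) or TRPM7 shRNA replicate 1 (-1.22).

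PLCD4, a phospholipase that makes inositol trisphosphate, rose in SH-EP2 from 4.13 and 4.75 to 6.01 and 5.78 (1.45 ± 0.21 SE, limma adjusted p = 0.000343) and differed by -0.10 ± 0.21 SE in SH-SY5Y. SLC8B1, the mitochondrial sodium-calcium exchanger listed on the array as SLC24A6, fell in SH-EP2 from 8.55 and 8.58 to 8.0 and 7.86 (-0.63 ± 0.16 SE, adjusted p = 0.0276), a call lost without any 1 of the 4 SH-EP2 arrays (-0.71 to -0.56). The call for NCALD was lost without SH-EP2 control replicate 2 (-0.77) or TRPM7 shRNA replicate 1 (-0.69), and that for NCS1 without SH-SY5Y control replicate 2 (-0.56). With per-probe tests the knockdown calls of all 8 partners named were lost (VSNL1 adjusted p = 0.17 and 0.105), and without the intensity trend all but that of VSNL1 in SH-EP2 (adjusted p = 0.0975 in SH-SY5Y). The mean over probes lost the calls for HPCAL1 (-0.71) and NCALD (-0.49), median scaling those for NCS1 (-0.52) and SLC8B1 (-0.66), and normexp (-0.34) or no correction (-0.23) that for STAC.

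**Figure D5:**
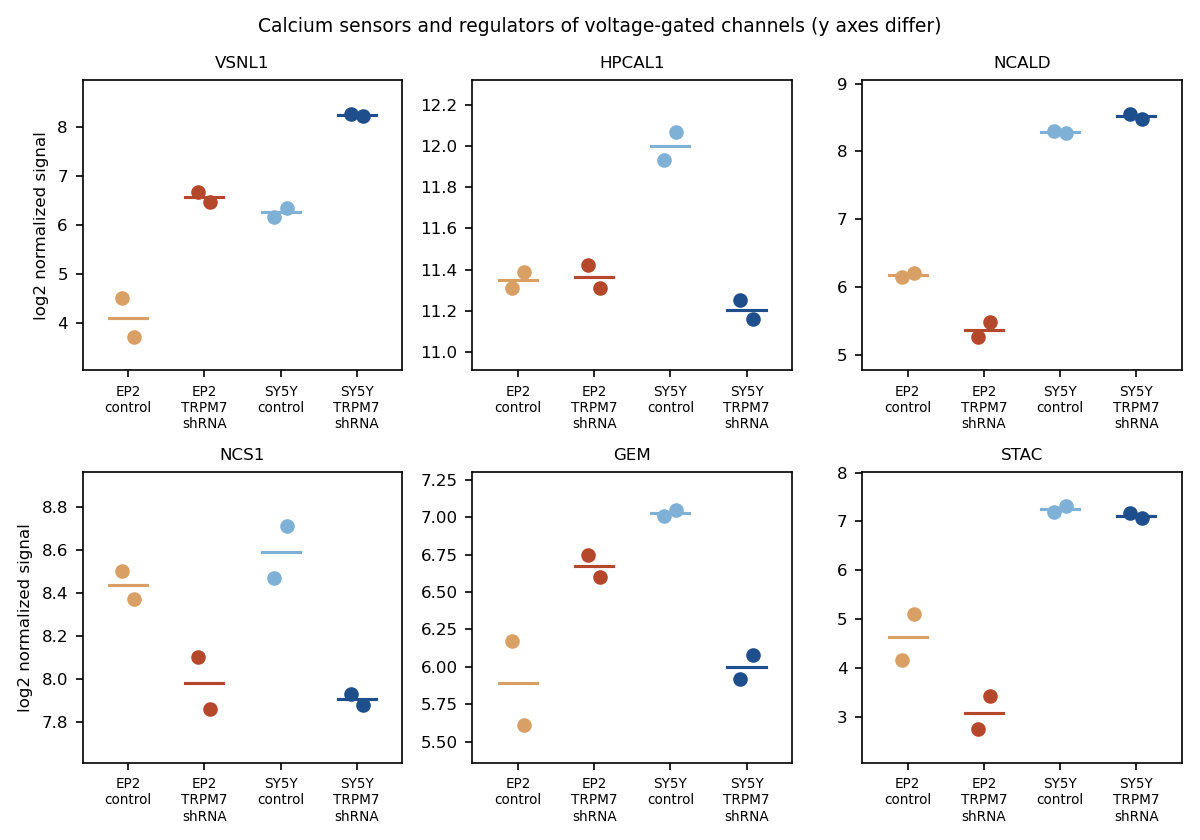
Log2 normalized signal (y axis, scale differs between panels) on each array of the 4 groups (x axis) for the calcium sensors VSNL1, HPCAL1, NCALD and NCS1 and for GEM and STAC, which act on voltage-gated channels; points are arrays and bars group means. VSNL1 lies higher in TRPM7 shRNA than in control arrays of both lines, and GEM lies lower in SH-SY5Y and higher in SH-EP2.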

How the data were processed

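With GenomeStudio v2011.1 the authors obtained an intensity and a detection p-value for each probe, and they deposited the intensities on a linear scale without normalization; their paper names Robust-Multi-Array normalization and no test. Here intensities were corrected with the RMA background model (background 98.3 to 111.1, SD 6.71 to 8.05), brought to a common distribution by quantile normalization over the 8 arrays, and log2 transformed. The deposited detection p-values defined detection (under 0.05) and entered no test. All 47322 probes were fitted as 4 groups in limma 3.58.1 under R 4.3.3, using lmFit and then eBayes with its trend on intensity (two-sided, Benjamini-Hochberg over all probes, no replicate block), and the procedure was tested on simulated data. Gene symbols are those of the files for 44052 probes, and all 65 genes are current RefSeq symbols.

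The genes, the list of 96 partners and the tests were chosen with earlier results of these data known. Named singly were genes called in a knockdown comparison, in the test between knockdown effects or in both line comparisons, the STIM and ORAI genes, ATP2A2, TRPC1 and MCOLN1, and the 8 partners with the largest called knockdown differences. Alternatives were neqc (offset 16), normexp (offset 50) and no background correction, scaling to equal medians, a filter that keeps probes detected on 2 or more arrays, eBayes without the trend, per-probe tests with equal variances, the mean over a gene's probes, leaving out each array, the replicate number as a block, and each line (for the line differences, each shRNA) normalized and fitted alone. Where an array was left out, the lone remaining array of its group was assumed to vary like the other groups. Results of some genes counted in the totals are not reported here.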

Additional observations from a re-analysis of the deposited data

Results flagged for a closer look

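A difference between the knockdown effects of the 2 lines passed the test (limma interaction, adjusted p under 0.05) for 3 of the channel and pump genes and 4 of the partner genes named above. The SH-SY5Y effect exceeded the SH-EP2 effect by 0.54 on the log2 scale for CACNB3, 1.33 for STIM1, 0.70 for ATP2A2 and 1.04 for NCALD. It was the smaller by a log2 difference of -1.55 for PLCD4, -1.82 for GEM and -0.81 for HPCAL1. No group held enough arrays to test for an array standing apart.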

How the results depend on the processing

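Line differences were stable in number: 16 to 22 of the 65 genes were called in control cells and 19 to 25 in TRPM7 shRNA cells over the alternatives, and leaving out 1 array gave 16 to 20 and 19 to 24. In the line difference of TRPM7 shRNA cells, the median of all genes was 0.13 with median scaling and 0.0075 without it, the widest shift of the 5 comparisons. Knockdown counts were less stable, and apart from the alternatives that change the arrays or probes tested the cause was not tested. In SH-SY5Y, where 0 genes were called, 1 gene was called lower with neqc, normexp, no background correction and SH-SY5Y arrays alone. In contrast, 1 gene was called higher with median scaling (STIM1) and with detected probes only (ATP2A2). Leaving out SH-SY5Y control replicate 2 changed the SH-SY5Y count as well, and leaving out any other single array did not. In SH-EP2 the count of 2 became 4 with normexp and with SH-EP2 arrays alone. Each of these had 1 gene higher and 3 lower, and shared only 1 gene with the 2 main calls. With detected probes only it was 4, all lower, and included the 2 main calls. It was 1 with median scaling, and 0 without the intensity trend, with per-probe tests and with the mean over probes. Leaving out single arrays changed the SH-EP2 calls as well. The 3 differences between knockdown effects became 0 without the trend and with per-probe tests, and 0 to 3 without single arrays.

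Same-numbered arrays gave no sign of being paired. Their deviations from group means correlated at -0.111 in SH-SY5Y and -0.00447 in SH-EP2 over 14577 probes detected on all arrays. Across the lines the correlations were 0.00521 in control and 0.0394 in TRPM7 shRNA cells. Such values cannot exclude a weak pairing or a pairing under other numbers. With the replicate number as a block the counts were 0 in SH-SY5Y, 1 in SH-EP2 and 1 for the difference of effects, where STIM1 (adjusted p = 0.0663) and CACNB3 (adjusted p = 0.112) lost the call; CACNA2D2 (adjusted p = 0.0541) lost it in SH-EP2, as did the partner SLC8B1 (adjusted p = 0.0595). A block with the SH-SY5Y numbers crossed, added after seeing the data, gave 2 in SH-SY5Y and 3 for the difference of effects.

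For the genes named, 1218 alternative values were computed over 67 gene and comparison pairs: 1050 kept direction and call, 147 lost the call, 13 gained it and 8 changed sign. All 8 sign changes were of differences not called. In SH-SY5Y, ORAI1 became 0.01 with median scaling, 0.15 without TRPM7 shRNA replicate 2, and 0.22 when control replicate 2 was left out (range without single arrays -0.48 to 0.22). ORAI2 became -0.41 in SH-SY5Y without TRPM7 shRNA replicate 1 (range -0.41 to 1.14) and -0.03 in SH-EP2 without TRPM7 shRNA replicate 2 (range -0.03 to 0.4). MCOLN1 became 0.09 in SH-SY5Y with median scaling and 0.01 without TRPM7 shRNA replicate 2 (range -0.16 to 0.01), and 0 in SH-EP2 without control replicate 2 (range -0.27 to 0). The slide as a block was not run, because the column headers give no slides. For the genes without detection, differences are set by background and the arrays cannot show a change.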
